A study of Caenorhabditis elegans with 12 samples.

Results

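Ageing of wild-type Caenorhabditis elegans was followed by setting the small RNA libraries of strain N2 at day 5 of adulthood against those at day 0, over all 213 mature microRNAs of the deposited table. These 6 libraries, 3 per day, are 6 of the 12 in the series and were chosen by strain and age alone. Both groups were whole animals with the wild-type genotype, cultured at 20 °C and transferred, soon after the moult to adulthood, to plates with 0.1 mg/mL 5-fluorodeoxyuridine, a blocker of DNA synthesis that stops progeny from developing. The other 6 libraries came from mir-71(n4115) worms, which lack the microRNA gene mir-71, at the same ages and on the same drug. They entered only the estimate of spread and the test of whether ageing differed between strains. The series text calls the 3 libraries of each group biological replicates without saying what separated them, so p-values reflect the spread between these samples.

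A microRNA is cut from the hairpin of a longer transcript as a short duplex. An Argonaute protein usually keeps one strand, the guide, which represses messenger RNAs with matching sites, and the other strand, the passenger, is mostly destroyed. The strand from the left side of the hairpin is named 5p and that from the right side 3p. In worms, lin-4 and let-7 are known for timing larval development, the mir-35 family for its need in the embryo, miR-1 for muscle, and mir-71 and several others for effects on adult lifespan.

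Read numbers, inferred from the smallest step of the values in each library, came to between 983745 and 2375708 in N2, and the normalised totals ran from 1336401 to 2342680. On the log2 scale, Pearson's r across microRNAs, which are not independent replicates, was 0.972 to 0.991 between libraries of one day and 0.923 to 0.958 between days. Markers of muscle (miR-1-3p), intestine (miR-60-3p), glia (miR-228-5p), neurons and the germline and early embryo (the mir-35 family) were all detected, as was miR-71-5p, which the wild type carries. In such bulk samples, fewer cells of a type and less of a microRNA per cell cannot be told apart.

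Under the authors' scaling more microRNAs fell than rose with age, and the largest rises exceeded the largest falls. limma, fitted to log2(normalised value + 1) in all 12 libraries, called 50 of the 213 microRNAs at a Benjamini-Hochberg adjusted p under 0.05, which is 23.5% of those tested. Of these, 16 were higher at day 5 (7.51% of those tested) and 34 were lower (16.0%). The called rises ran from 1.61 to 4.87 and the called falls from −2.71 to −1.15 on the log2 scale. Over all 213, 150 log2 changes were negative and 63 positive, with a median of −0.48 and a median SE of 0.53. In 100 microRNAs, or 46.9%, the 3 values of day 5 and the 3 of day 0 did not overlap, with day 5 below in 74 (34.7%) and above in 26 (12.2%). Of the 50 called microRNAs, 49 were free of overlap, the exception being miR-86-3p.

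The median of −0.48 depended on the scaling of the libraries. It was −0.48 with equal library totals but 0.03 with equal library medians and 0.03 when libraries were scaled by a trimmed mean of M-values (TMM, computed on the normalised values), a shift of 0.51 in both. The calls were then 27 higher (12.7%) and 67 lower (31.5%) with equal totals, 39 higher (18.3%) and 33 lower (15.5%) with TMM, and 40 higher (18.8%) and 35 lower (16.4%) with equal medians. Rises thus outnumbered falls with TMM and with equal medians, so the excess of falls depended on the scaling. All 16 rises and 32 of the 34 falls were called in the same direction under these 3 scalings, and the exceptions were the falls of miR-49-3p and miR-795-5p. Leaving out single N2 libraries also changed the counts. Without replicate 2 of day 0, 4 were higher and 6 lower, and without replicate 2 of day 5, 11 were higher and 11 lower. Without replicate 3 of day 0 the counts were 6 and 20, without replicate 1 of day 0 they were 20 and 21, without replicate 1 of day 5 they were 10 and 27, and without replicate 3 of day 5 they were 7 and 27. Of the called microRNAs, 10 were called whichever of the 12 libraries was left out.

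**Figure D1:**
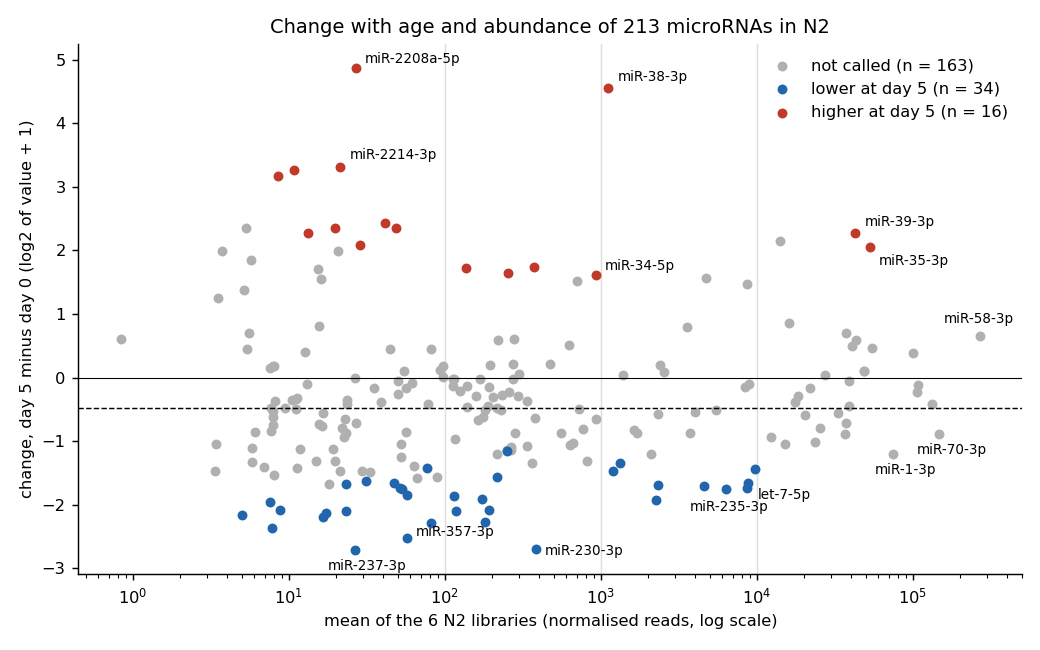
Change between day 0 and day 5 in N2 (vertical axis, log2 of value + 1) against the mean of the 6 N2 libraries (horizontal axis, normalised reads, log scale), 1 point per microRNA; the dashed line is the median of −0.48 and grey verticals part the abundance classes. The 16 rises and 34 falls past the test are coloured, and among the 31 microRNAs with means of 10000 or more 2 are coloured as rises and 0 as falls. These means include day 5, so a change with age also shifts a point along the horizontal axis.

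Called falls differed more than called rises between abundance classes, which were set with the day 5 values included. The 213 microRNAs were divided by their mean over the 6 N2 libraries into 100 with a mean under 100 normalised reads, 57 with 100 to under 1000, 25 with 1000 to under 10000, and 31 with 10000 or more. The most abundant class had 2 rises (6.45%), 0 falls and a median log2 change of −0.16. The class below it had 1 rise (4%) and 9 falls, so that 36% of its 25 members fell, and its median was −0.82. The class of 100 to under 1000 had 4 rises (7.02%) and 8 falls (14.0%, median −0.47). The scarcest class had 9 rises (9%) and 17 falls (17%, median −0.54). Over all 213 microRNAs 7.51% rose and 16.0% fell, near the shares of the 2 scarcer classes. Scaling altered the picture for the most abundant class, which had 4 rises and 5 falls with equal totals and 10 rises and 0 falls with TMM or with equal medians. In the class of 1000 to under 10000 the falls numbered 8 to 11 and the rises 3 to 4 under those 3 scalings. The share of members called in each class was not tested against the other classes. Because the class mean includes day 5, a change with age could itself move a microRNA across a class border. By day 0 means alone, the called falls let-7-5p (13452), miR-237-5p (13218) and miR-85-3p (14046) would lie in the most abundant class.

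The 2 rises among the most abundant microRNAs were guides of the mir-35 family, which is needed for embryonic development. miR-39-3p stood at 30459, 6514 and 13051 normalised reads in replicates 1, 2 and 3 of day 0 and at 76953, 45357 and 84410 at day 5. All 3 aged libraries lay above the 3 young ones, the closest pair being replicate 1 of day 0 and replicate 2 of day 5. Its log2 change was 2.28 ± 0.76 (SE, limma adjusted p = 0.0418). miR-35-3p stood at 41292, 10462 and 17088 reads at day 0 and at 92994, 61015 and 94212 at day 5, again without overlap, a change of 2.06 ± 0.71 (adjusted p = 0.0456). miR-38-3p was the one rise in the class of 1000 to under 10000, which it entered only through its day 5 values. It stood at 309, 20.1 and 79.8 reads at day 0 and at 2252, 978 and 3072 at day 5. Every aged library held more than 3 times the highest young value, and the change was 4.55 ± 1.10 (adjusted p = 0.0109).

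The falls among microRNAs with means of 1000 to under 10000 included those of developmental timing. let-7-5p, which drives the switch from larva to adult, stood at 16171, 13279 and 10907 reads at day 0 and at 3940, 4025 and 4696 at day 5, a change of −1.66 ± 0.43 (limma adjusted p = 0.013). miR-237-5p, a relative of lin-4, stood at 14707, 13349 and 11597 and then at 4506, 2896 and 4763 reads (−1.73 ± 0.44, adjusted p = 0.0127). miR-241-5p, which acts with other let-7 relatives in the larva, stood at 3042, 4382 and 3193 and then at 1639, 826 and 927 reads (−1.69 ± 0.40, adjusted p = 0.0101). In all 3 microRNAs the young libraries were clearly apart from the aged ones.

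The other falls of this class were of the same size. miR-235-3p, related to the miR-92 family and known for holding neural and other progenitors quiescent in starved larvae, stood at 7724, 11851 and 9988 reads at day 0 and at 3231, 2827 and 2579 at day 5. It fell by 1.76 ± 0.36 on the log2 scale (limma adjusted p = 0.00518) and was called whichever library was left out. miR-50-5p stood at 8914, 6536 and 5697 reads and then at 2018, 1978 and 2375, a change of −1.71 ± 0.43 (adjusted p = 0.0121). Its 3 aged libraries were close together and all below the lowest young one. miR-85-3p stood at 18999, 11961 and 11177 reads and then at 3362, 5372 and 7143 (−1.43 ± 0.50, adjusted p = 0.0477). miR-59-3p, the largest fall of the class, stood at 4732, 2510 and 3300 reads and then at 741, 587 and 1613 (−1.93 ± 0.64, adjusted p = 0.0406). These 2 were among the closest to the threshold, miR-85-3p keeping its call in 4 and miR-59-3p in 5 of the 12 fits that each left out 1 library. miR-790-5p, known from sensory neurons, stood at 1920, 1938 and 1446 reads and then at 670, 660 and 562 (−1.48 ± 0.42, adjusted p = 0.0199). miR-49-3p stood at 1930, 1873 and 1886 reads and then at 555, 761 and 976 (−1.35 ± 0.36, adjusted p = 0.0148), and this fall was not called with TMM (−0.81) or equal medians (−0.81). For both microRNAs the young libraries agreed closely and the aged ones were all lower.

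None of the 5 most abundant microRNAs passed the test under the authors' scaling, and their values overlapped between days. miR-58-3p, a bantam relative that limits signalling of the TGF-beta type, stood at 292686, 137413 and 187106 reads at day 0 and at 277901, 211882 and 500213 at day 5. The days overlapped, the highest library being replicate 3 of day 5, and the change was 0.66 ± 0.54 (limma adjusted p = 0.41). It was called higher, at 1.20, with TMM and with equal medians, but not with equal totals (0.66). miR-70-3p stood at 302419, 113050 and 160597 and then at 139671, 58481 and 106796 reads (−0.88 ± 0.59, adjusted p = 0.29), and was called lower with equal totals (−0.88) but not with TMM (−0.35). miR-71-5p, which promotes long life, stood at 173431, 155783 and 123352 and then at 142695, 90221 and 110683 reads (−0.41 ± 0.43, adjusted p = 0.525). Both miR-70-3p and miR-71-5p had their lowest library at day 5, in replicate 2. miR-82-3p stood at 168176, 88084 and 82035 and then at 154633, 71136 and 86587 reads (−0.12 ± 0.51, adjusted p = 0.893), and its family member miR-80-3p at 136941, 106024 and 100768 and then at 113753, 77758 and 101564 (−0.23 ± 0.51, adjusted p = 0.792). The sign of miR-71-5p, miR-82-3p and miR-80-3p turned with TMM, to 0.13 for miR-71-5p, 0.42 for miR-82-3p and 0.30 for miR-80-3p.

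The lowest change in the most abundant class was that of the muscle microRNA miR-1-3p. It stood at 111838, 120775 and 80998 reads at day 0 and at 41177, 38123 and 56508 at day 5, so that every aged library was below every young one. Its change of −1.21 ± 0.65 did not pass the test (limma adjusted p = 0.178). It was called lower with equal totals (−1.20) and not called with TMM (−0.67) or equal medians (−0.67). The intestinal miR-60-3p (1625 to 2428 reads at day 0, 620 to 1928 at day 5, change −0.82, adjusted p = 0.268) and the glial miR-228-5p (31656 to 46745 and 19814 to 35589 reads, change −0.55, adjusted p = 0.441) overlapped between days. The 4 neuronal microRNAs summed to 1532 to 2006 reads at day 0 and 607 to 722 at day 5, most of it miR-790-5p. Among them lsy-6, which sets the asymmetry of a pair of taste neurons, was called lower at 14.9, 15.6 and 11.2 reads and then 0, 5.06 and 6.05, while miR-124-3p and miR-791-3p overlapped between days. The part that altered tissue proportions may have in any change was not tested.

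**Figure D2:**
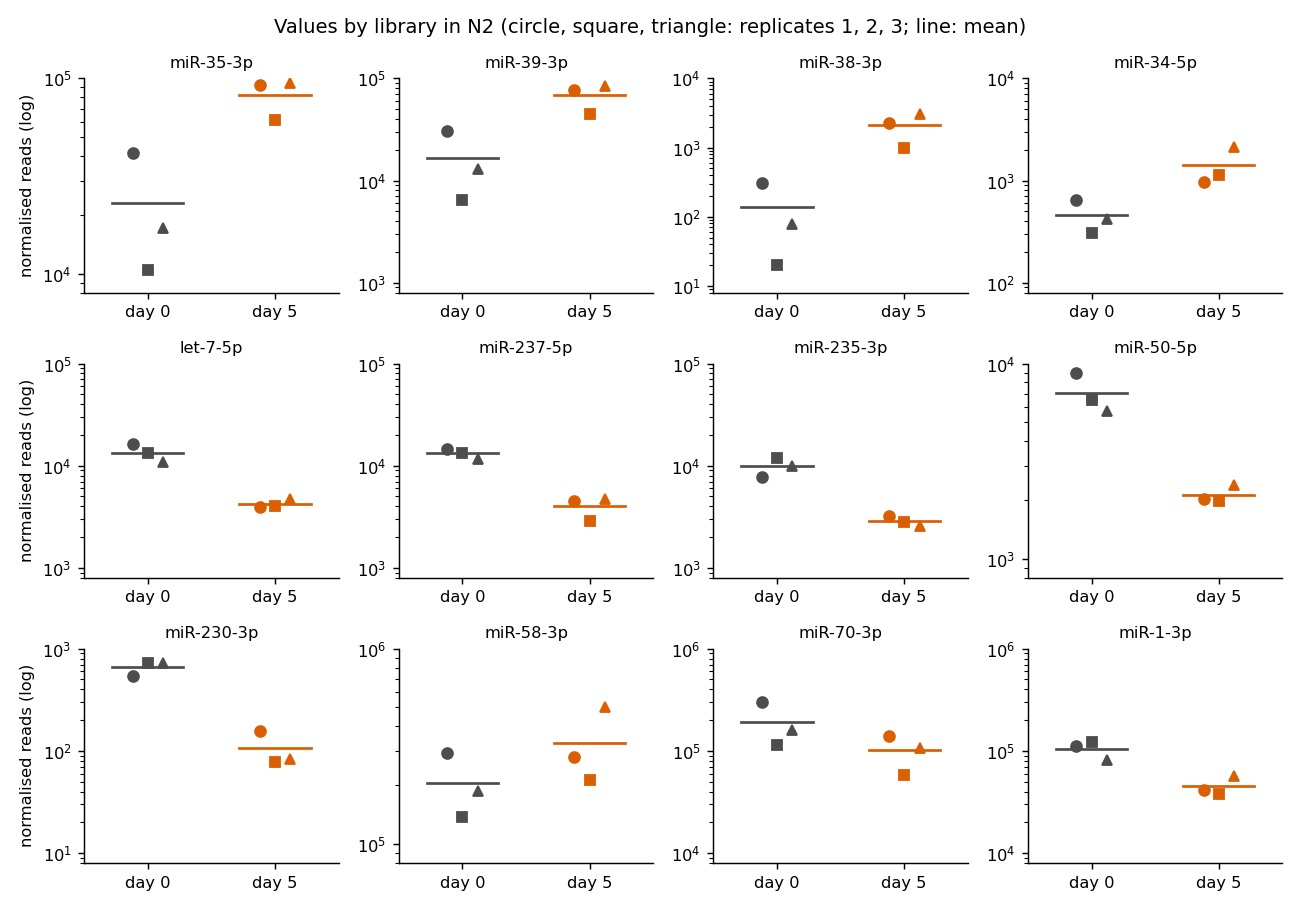
Normalised reads (vertical axes, log scale) of 12 microRNAs in the 3 N2 libraries of day 0 and of day 5; circles, squares and triangles are replicates 1, 2 and 3 and the line is the mean. The mir-35 family guides and miR-34-5p are higher at day 5 without overlap, let-7-5p, miR-237-5p, miR-235-3p, miR-50-5p and miR-230-3p are lower without overlap, and miR-58-3p and miR-70-3p overlap.

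Several scarcer microRNAs changed by as much or more. Both arms of mir-230, a gene on chromosome X at 5803892 to 5803989 of WBcel235 between protein-coding genes, fell in step. miR-230-3p stood at 540, 724 and 731 reads at day 0 and at 157, 77.1 and 83.9 at day 5, and miR-230-5p at 263, 347 and 286 and then at 87.0, 40.5 and 62.3. The gap between days was wider than the spread within either for both arms, with changes of −2.70 ± 0.42 (limma adjusted p = 0.00111) and −2.28 ± 0.42 (adjusted p = 0.00229). miR-357-3p, from an intron of symk-1 on the opposite strand (chromosome V, 8580542 to 8580651), stood at 118, 85.9 and 87.8 and then at 9.80, 18.0 and 22.5 reads (−2.52 ± 0.43, adjusted p = 0.00191). miR-1817 stood at 138, 136 and 132 and then at 29.4, 18.0 and 37.2 reads (−2.28 ± 0.42, adjusted p = 0.00229). These 4 were called whichever library was left out.

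Among the other large falls, miR-788-3p stood at 294, 361 and 271 reads at day 0 and at 80.9, 52.3 and 87.3 at day 5 (−2.08 ± 0.49, limma adjusted p = 0.0101). miR-54-5p, the passenger of an abundant guide, stood at 206, 231 and 134 and then at 72.3, 25.9 and 41.5 reads (−2.09 ± 0.53, adjusted p = 0.0127). Neither overlapped between days. miR-799 stood at 50.9, 35.7 and 28.7 and then at 6.13, 6.19 and 13.0 reads (−2.10 ± 0.49, adjusted p = 0.0101). miR-237-3p, the passenger of miR-237-5p, stood at 69.5, 45.7 and 23.9 and then at 12.3, 3.94 and 3.46 reads and had the lowest change of all, −2.71 ± 0.61 (adjusted p = 0.00932). These values are near the added 1, which understates the change of such scarce microRNAs.

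Of the rises outside the mir-35 cluster, the one of miR-34-5p, which is conserved in animals and linked to stress and ageing, had the most reads behind it. It stood at 644, 305 and 420 reads at day 0 and at 967, 1135 and 2125 at day 5, without overlap, a change of 1.61 ± 0.50 (limma adjusted p = 0.0348), while its passenger miR-34-3p had −0.09 and did not pass. miR-63-5p, the passenger of a mir-64 relative, stood at 217, 139 and 140 and then at 731, 303 and 712 reads (1.73 ± 0.57, adjusted p = 0.04), against 0.80 ± 0.42 for its guide miR-63-3p (adjusted p = 0.178), which was called higher with TMM (1.33) and equal medians (1.34). Of the 9 microRNAs listed for effects on lifespan or as age markers, 1 rose under the authors' scaling, miR-34-5p, where 7.51% of all microRNAs rose. With equal totals 3 rose and 1 fell (lin-4-5p), and with TMM or equal medians 4 rose. miR-238-3p had 0.46 (adjusted p = 0.425), miR-246-3p 0.86 (adjusted p = 0.268) and miR-239a-5p 1.99 (adjusted p = 0.0554). Of these, miR-246-3p and miR-239a-5p were called higher under all 3 other scalings and miR-238-3p with TMM and equal medians. The list's median was 0.46 beside −0.48 over all microRNAs.

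Several of the scarce rises came from genes that lie close together. On chromosome IV, mir-2208a (1021772 to 1021832), mir-2209a (1027101 to 1027164) and mir-2209c (1027218 to 1027281) share a stretch with mir-2208b. Of the 5 products measured there 3 rose, while 7.51% of all microRNAs rose, and the group was picked with its rises known. miR-2209a-3p, which belongs to the bantam-related family with miR-58-3p, stood at 21.1, 11.2 and 6.38 reads at day 0 and at 91.9, 44.4 and 73.5 at day 5 (2.44 ± 0.56, limma adjusted p = 0.0101). miR-2208a-5p stood at 2.48, 0 and 0 and then at 99.2, 19.7 and 40.6 reads (4.87 ± 0.77, adjusted p = 0.00111), the largest change in the table, and all of its young values were at or near 0. By the read numbers inferred from the values, which could not be checked formally because too few low values exist, it rested on 2 reads at day 0 and 163 at day 5. The ratio of these pooled reads, corrected for the summed scale of the libraries, was 50.6 with an exact 95% interval of 13.8 to 422. miR-2209c-3p stood at 0, 0 and 4.79 and then at 14.7, 19.7 and 12.1 reads, and was called as well. Its inferred reads were 3 against 61, a ratio of 12.6 by the same correction (4.12 to 62.9). These intervals hold only if the inferred reads do. They treat each read as an independent count, which cannot be checked without unique molecular identifiers, and leave out the spread between libraries. Both arms of miR-2208b had changes of 0.40 and 0.45 and did not pass.

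A second group on chromosome X spans mir-4807 (from 1872466) to mir-1018 (to 1879513). Its 4 measured products had positive changes, and 2 were called under the authors' scaling. Over all 213 microRNAs 63 changes were positive and 7.51% were called higher, and this group too was picked with its rises known. miR-4807 stood at 11.2, 8.92 and 6.38 reads at day 0 and at 89.4, 20.8 and 33.7 at day 5 (2.09 ± 0.67, limma adjusted p = 0.037). miR-1018, a mirtron by the list used here although annotated between protein-coding genes, stood at 13.6, 2.23 and 3.19 and then at 55.1, 14.1 and 30.3 reads (2.35 ± 0.70, adjusted p = 0.0275). For both microRNAs replicate 1 was the highest library at both ages. miR-2214, in an intron of B0361.11 on chromosome III (7278715 to 7278778), rose in both arms. miR-2214-3p stood at 2.48, 4.46 and 1.60 and then at 17.2, 59.6 and 43.2 reads (3.32 ± 0.60, adjusted p = 0.00229) and miR-2214-5p at 47.1, 61.4 and 83.0 and then at 229, 219 and 177 reads (1.72 ± 0.37, adjusted p = 0.00765). Neither arm overlapped between days and both were called whichever library was left out.

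Neighbouring genes did not always change together. mir-241 and mir-48 are neighbours on chromosome V (14364412 to 14366283) and both let-7 relatives, yet both arms of mir-241 fell while miR-48-5p stood at 86261, 91268 and 77557 reads at day 0 and at 168456, 80970 and 98997 at day 5 (0.38 ± 0.49, limma adjusted p = 0.604). miR-48-5p was called higher with TMM (0.92) and with equal medians (0.92). In the mir-230 and mir-791 group, both arms of mir-230 fell and neither arm of mir-791 passed. Over all microRNAs 7.51% rose and 16.0% fell. By position, 132 microRNAs lay between protein-coding genes (9 rises and 22 falls), 52 in an intron on the same strand (3 and 7), 25 in an intron on the opposite strand (4 and 4) and 3 in an exon (0 and 0). The rises in introns on the opposite strand were all from the mir-35 cluster. Chromosome X held 68 microRNAs with 5 rises and 11 falls, chromosome II 40 with 5 and 6, chromosome IV 32 with 4 and 4, chromosome III 30 with 2 and 2, chromosome V 22 with 0 and 4, and chromosome I 20 with 0 and 6. These counts were not tested against each other. Positions could be matched for 212 of the 213, let-7-5p being the exception.

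Of the families listed, the mir-35 family was the one whose members, the 3p arms of mir-35 to mir-42, all had positive changes. Of the 8 3p arms, 4 were called (miR-35-3p, miR-38-3p, miR-39-3p and miR-42-3p), 0 fell, and their median was 2.10, while 7.51% of all microRNAs rose. All 8 were called under each of the 3 other scalings and when the N2 libraries were fitted alone, but 2 when no variance trend was fitted. Without replicate 2 of day 0 the number was 0, without replicate 3 of day 0 it was 1, and without replicate 3 of day 5 it was 1. It was 2 without replicate 1 or replicate 2 of day 5 or without replicate 3 of the mutants at either age, 7 without replicate 1 of day 0 and 8 without the second young mutant library. Summed, the 8 arms held 97947, 23098 and 39848 normalised reads in the young libraries and 204232, 143403 and 238057 in the aged ones, so that replicate 1 of day 0 was well above the other 2 young libraries and still below every aged one. miR-42-3p, encoded apart from the others at 11889811 to 11889905 on chromosome II, had 164, 100 and 107 and then 379, 291 and 495 reads, a change of 1.64 ± 0.44 (limma adjusted p = 0.0148). The uncalled members had changes of 1.57 for miR-36-3p (adjusted p = 0.124), 2.15 for miR-37-3p (adjusted p = 0.0826), 1.47 for miR-40-3p (adjusted p = 0.11) and 2.36 for miR-41-3p (adjusted p = 0.0915). miR-41-3p was at 0 in replicates 2 and 3 of day 0 and between 6.13 and 14.7 reads at day 5, and it was the less abundant arm of its precursor, miR-41-5p standing at 136 to 217 and then at 125 to 203 reads. These 3p arms share much of their sequence and the counting rule is not given in the sources used here, so how reads were divided among them is uncertain. The same 8 served as the markers of germline and early embryo, and what part a changed amount of that tissue has in the rise was not tested.

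The 5p arms of these precursors changed in different ways. The genes mir-35 to mir-41 lie side by side on chromosome II (11537608 to 11538404), in an intron of Y62F5A.9 on the opposite strand. The 5p arms of mir-35, mir-36, mir-37, mir-39 and mir-40 together held 402, 131 and 94.2 reads at day 0 and 124, 99.6 and 207 at day 5, with the young and aged libraries overlapping. miR-36-5p fell, from 60.8, 40.2 and 41.5 to 22.1, 9.56 and 13.8 reads (−1.63 ± 0.52, limma adjusted p = 0.0358), and it did so with day 5 below day 0 in every library. miR-35-5p rose, from 29.8, 4.46 and 14.4 to 40.4, 53.4 and 150 reads (2.35 ± 0.72, adjusted p = 0.0323), beside 2.06 for miR-35-3p. Neither miR-37-5p (−0.34), miR-39-5p (−1.04), miR-40-5p (−1.48) nor miR-41-5p (−0.03) passed. Replicate 1 of day 0 was the highest library for miR-39-5p (182 reads against 31.2 and 23.9) and for miR-40-5p (108 against 41.3 and 9.57), and among the young libraries also for the summed 3p arms.

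**Figure D3:**
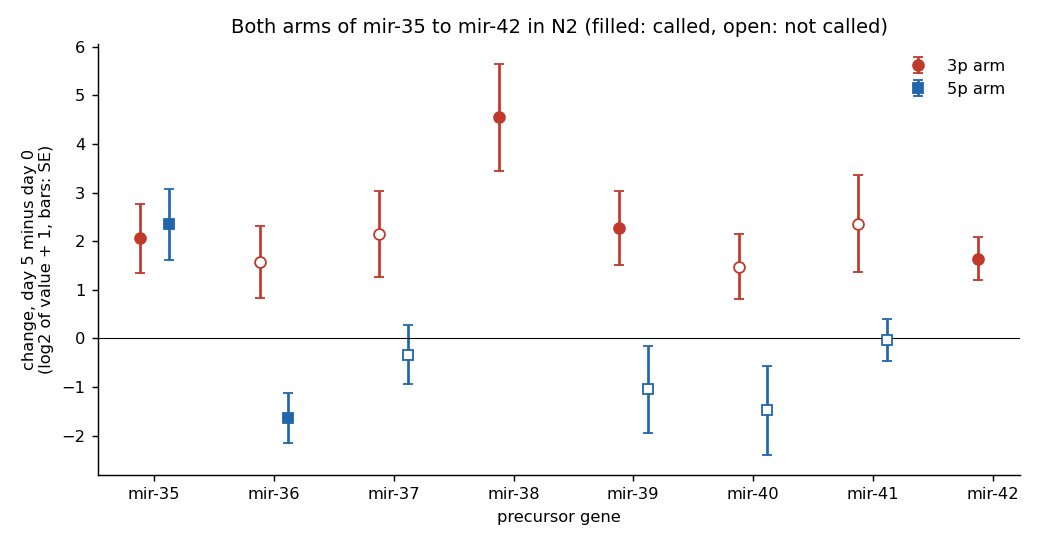
Change between day 0 and day 5 in N2 (vertical axis, log2 of value + 1, bars are limma SE) of the 3p and 5p arms of mir-35 to mir-42; filled symbols passed the test. The 8 3p arms lie between 1.47 and 4.55, while of the measured 5p arms miR-35-5p is called higher and miR-36-5p called lower.

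The ratio of the 2 arms within a library does not depend on how libraries are scaled, apart from the added 1. It was tested in 61 precursors with both arms in the table, mir-71 being left out because the mutants lack it. limma called 8 ratios (13.1% of those tested), 4 with a greater and 4 with a smaller part of 5p in aged worms; unadjusted p was under 0.05 in 22. In 22 precursors (36.1%) the 3 and 3 ratios did not overlap, 11 in each direction. By the mean 5p part of each day, the more abundant arm was the same at both ages in all 61. Single libraries could differ, as for the scarce mir-2208b, with a 5p part of 88.2%, 71.4% and 48.4% in replicates 1, 2 and 3 of day 5.

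The 4 ratios that turned towards 3p included 3 of the mir-35 cluster. For mir-39 the 5p part of both arms was 0.595%, 0.477% and 0.183% at day 0 and 0.0382%, 0.0521% and 0.0256% at day 5, a change in the log2 ratio of −3.32 ± 0.50 (limma adjusted p = 0.000991). For mir-36 it went from 1.08%, 4.11% and 2.08% to 0.339%, 0.196% and 0.164% (−3.20 ± 0.63, adjusted p = 0.00658), and for mir-40 from 1.41%, 1.47% and 0.228% to 0.156%, 0.0795% and 0.0747% (−2.95 ± 0.68, adjusted p = 0.00925). In each, the lowest young library was above the highest aged one. For mir-54, of the mir-51 family, it went from 0.950%, 1.27% and 0.752% to 0.257%, 0.261% and 0.375% (−1.71 ± 0.39, adjusted p = 0.00925), with the passenger miR-54-5p falling and the guide miR-54-3p at −0.39 (adjusted p = 0.59).

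The ratios that turned towards 5p were those of mir-243, mir-239a, mir-51 and mir-57. For mir-243, whose 3p arm is known to trigger small interfering RNAs on a target transcript in worms, the 5p part rose from 2.47%, 0.201% and 0.746% to 6.09%, 7.73% and 6.80% (2.92 ± 0.66, limma adjusted p = 0.00925). The 5p arm rose from 9.92, 1.12 and 3.19 to 27.0, 18.0 and 19.9 reads, while the 3p arm had −0.64 (adjusted p = 0.274). For mir-239a, from a gene studied in stress and lifespan, the 5p part went from 8%, 2.44% and 12.8% to 15.4%, 32.0% and 46.8% (2.41 ± 0.66, adjusted p = 0.0259). Among the called ratios this was the widest change in percentage points, though not in the log2 ratio, and 3p stayed ahead in each library. The remaining 2 were mir-51 (2.16 ± 0.53, adjusted p = 0.0132), where miR-51-3p fell from 109, 54.7 and 54.3 to 12.3, 25.3 and 29.4 reads beside miR-51-5p at 0.50, which was called higher with TMM (1.04), and mir-57 (1.72 ± 0.48, adjusted p = 0.0259), where miR-57-3p had −1.68 and miR-57-5p 0.04. The ratios of mir-239a and mir-57 were called in 9 and 7 of the 12 fits that each left out 1 library, and the other 6 in all 12.

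Less abundant arms had the lower changes more often. Over the 61 precursors the median log2 change was −0.22 for the more abundant arm and −0.65 for the less abundant one, and the less abundant arm had the lower change in 39. Among the more abundant arms 4 rose and 6 fell, and among the less abundant ones 4 rose and 12 fell. Both arms rose for mir-35 and mir-2214 and both fell for mir-230, mir-237, mir-241 and mir-795, while 0 precursors had one arm called higher and the other lower. The 2 changes had the same sign in 38 precursors and opposite signs in 23. The median level of the less abundant arms was 44.7 normalised reads beside 3564 for the more abundant ones, and the part that level has in this difference was not tested. By arm name, 6 of 83 5p arms rose and 13 fell, 7 of 104 3p arms rose and 18 fell, and of 26 microRNAs named without an arm 3 rose and 3 fell. The shares of 5p and of 3p arms were near the 7.51% that rose and the 16.0% that fell over all microRNAs.

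**Figure D4:**
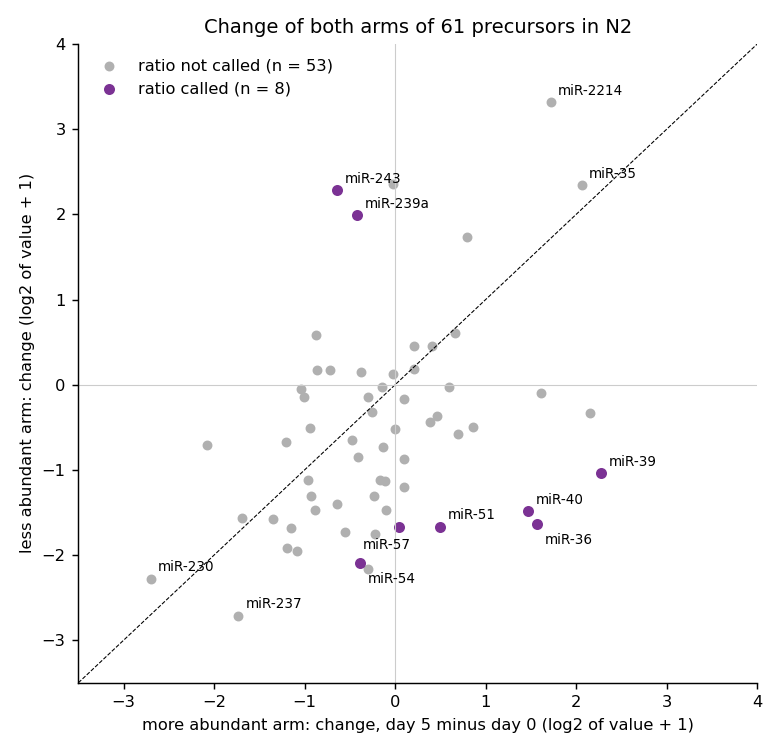
Change between day 0 and day 5 in N2 (log2 of value + 1) of the less abundant arm (vertical axis) against that of the more abundant arm (horizontal axis) for 61 precursors; the dashed line marks equal changes. The 8 precursors whose arm ratio was called are coloured and named, and 39 of the 61 points lie below the line, where the less abundant arm had the lower change.

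As shares of the library total, which do not depend on scaling, the class with means of 10000 or more held more at day 5 and the others less. The 31 microRNAs with means of 10000 or more held 92.5%, 90.8% and 91.8% of the total at day 0 and 94.8%, 93.5% and 93.9% at day 5, so that every aged library was higher. The class of 1000 to under 10000 went from 7.03% ± 0.70 to 4.90% ± 0.48 (SD, n = 3 per day), that of 100 to under 1000 from 1.11% ± 0.11 to 0.886% ± 0.160, and the scarcest from 0.175% ± 0.0103 to 0.125% ± 0.0110. The 3 and 3 values overlapped in none of the 4 classes. Exact permutation tests, two-sided, gave p = 0.1 for each, the smallest that 3 against 3 libraries allow, and 0.188 after Benjamini-Hochberg adjustment over 15 shares. The tests do not allow for classes set on means that include day 5, which moves rising microRNAs up a class and falling ones down. miR-37-3p (mean 6093 at day 0, 21988 at day 5) was in the most abundant class only through day 5. let-7-5p (13452 and 4220), miR-237-5p (13218 and 4055) and miR-85-3p (14046 and 5293) were outside it only through day 5. How much of the shift between classes this makes was not tested. The number of microRNAs that made up 90% of the total was 28, 29 and 28 at day 0 and 24, 27 and 26 at day 5. The 10 most abundant microRNAs together went from 58.5% ± 2.38 to 60.1% ± 2.24 (exact permutation p = 0.4, n = 3 per day), and 5p arms from 33.5% ± 5.04 to 29.5% ± 2.94 (p = 0.4), with the days overlapping in both.

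Among the families listed, several gained share. The mir-35 family held 4.18%, 1.45% and 2.54% of the total at day 0 and 9.61%, 10.7% and 11.7% at day 5. The mir-58 family, of bantam relatives, held 27.8%, 22.6% and 25.3% and then 29.5%, 28.5% and 35.1%. The mir-72 family, related to miR-31, held 2.16%, 2.70% and 2.41% and then 3.24%, 3.68% and 3.19%. In these 3 families every aged library was above every young one, and in the lin-4 family, at 0.842%, 1.18% and 1.00% and then 0.316%, 0.408% and 0.390%, every aged library was below. Each gave an exact permutation p of 0.1 and an adjusted p of 0.188 (n = 3 per day). The gain of the mir-58 family lay with miR-58-3p: without that microRNA in family and total, the family's difference was −0.0958 percentage points in place of 5.76. The let-7 family (6.27% ± 1.28 and 7.06% ± 1.41), which includes both the falling let-7-5p and the more abundant miR-48-5p, overlapped between days (exact permutation p = 0.5, n = 3 per day). So did the mir-51 family (8.79% and 7.23%), the mir-64 family (6.64% and 5.07%), the mir-2 family (0.0832% and 0.0554%) and the mir-44 family (6.04% and 6.31%), in which miR-44-3p and miR-45-3p carry identical values and cannot be separated.

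Single microRNAs also gained or lost share. miR-58-3p went from a mean of 11.0% to 17.9% and was the most abundant microRNA in each aged library, reaching 24.6% in replicate 3, whereas at day 0 the lead was held by miR-70-3p, miR-71-5p and miR-58-3p in replicates 1, 2 and 3. miR-70-3p went from 12.9%, 7.11% and 10.2% to 6.57%, 4.38% and 5.26%, miR-1-3p from 4.77%, 7.60% and 5.16% to 1.94%, 2.85% and 2.78%, and miR-71-5p from 7.40%, 9.80% and 7.86% to 6.71%, 6.75% and 5.45%. All 3 were lower in every aged library as shares, although their normalised reads were not called. They were not alone in this: miR-52-5p and miR-80-3p also lost share without overlap, while miR-65-5p and miR-228-5p lost share with overlapping days. Shares in a library sum to a fixed total, so any gain by itself lowers the others. The mir-35 family gained 7.96 percentage points and miR-58-3p 6.84. How much of these losses such gains make was not tested. Further gains included those of miR-48-5p (4.79% to 6.29%), miR-238-3p (2.49% to 3.50%) and miR-77-3p (1.48% to 2.56%, picked with its value known), all with overlapping days. Those of miR-51-5p (1.82% to 2.62%) and miR-246-3p (0.623% to 1.13%) were without overlap. The 16 called rises together held 2.07% of the total at day 0 and 8.52% at day 5, and the 34 called falls 3.98% and 1.29%, which describes the choice of members and is no further evidence for it.

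**Figure D5:**
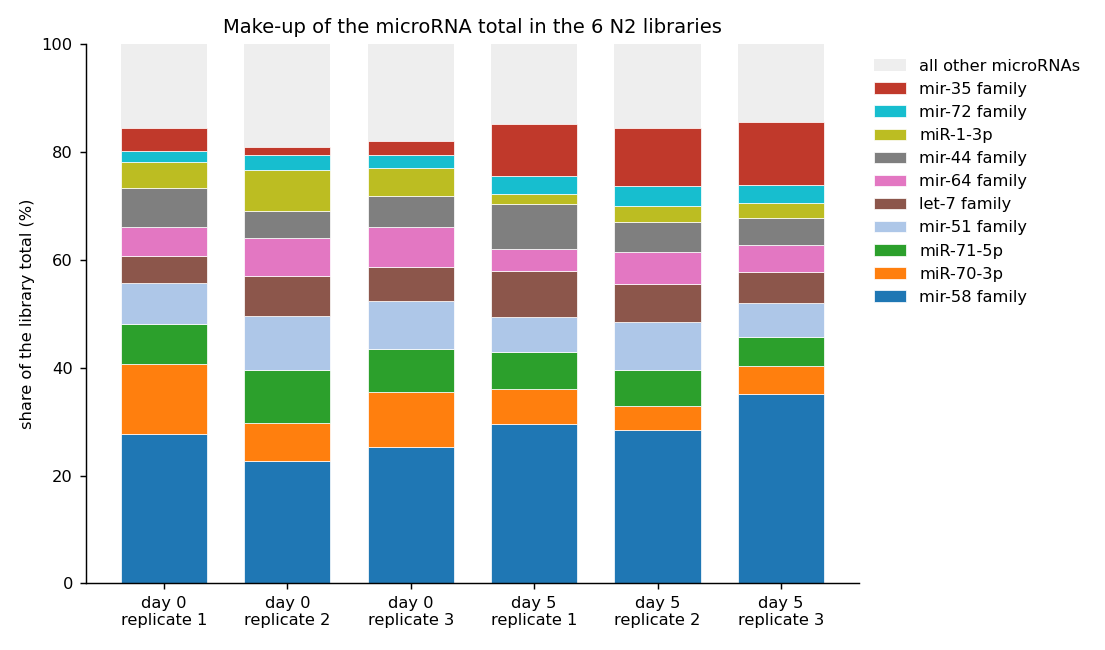
Share of the microRNA total (vertical axis, percent) in the 3 N2 libraries of day 0 and the 3 of day 5, as stacked bars by family, by single abundant microRNA and for all others. The mir-35 family fills 1.45% to 4.18% of the young libraries and 9.61% to 11.7% of the aged ones.

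The families of developmental timing held falls and, under the authors' scaling, 0 rises. Of 7 let-7 family members 3 fell, where 16.0% of all microRNAs fell, namely let-7-5p, miR-241-5p and miR-795-5p (−1.15 ± 0.39, limma adjusted p = 0.0444), with a median of −1.15 beside −0.48 over all microRNAs. The count was 5 falls with equal totals, and 2 falls and 1 rise (miR-48-5p) with TMM or equal medians. miR-793 had −1.15 (adjusted p = 0.119), miR-794-5p −0.86 (adjusted p = 0.254) and miR-84-5p −0.15 (adjusted p = 0.875). lin-4-5p, the founding heterochronic microRNA, stood at 5026, 5354 and 4112 reads and then at 2210, 2557 and 3157 (−0.88 ± 0.39, adjusted p = 0.108), so that the days did not overlap although the test was not passed, and it was called lower with equal totals. In 5 further families 0 members were called under the authors' scaling, with medians of −0.49 in the mir-51, −0.16 in the mir-64, −0.86 in the mir-2, −0.10 in the mir-44 and −0.10 in the mir-72 family. With equal totals, 2 of the mir-2 and 1 of the mir-44 family were called lower. With TMM or equal medians, 1 member each of the mir-51, mir-64 and mir-72 families was called higher, namely miR-51-5p, miR-63-3p and miR-72-5p. Of the 3 mirtrons measured, which are made from spliced introns, miR-1018 rose, miR-1020-3p fell (−1.42 ± 0.49, adjusted p = 0.0456) and miR-62 had −1.57 (adjusted p = 0.0699), which was called lower with equal totals and with equal medians.

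Whether ageing in N2 differed from ageing in the mutants was tested as the difference between both age effects over 211 microRNAs, the mir-71 arms being left out. limma called 0 of 211 (0%), with a smallest adjusted p of 0.397 and 25 at an unadjusted p under 0.05, and 0 were called under each alternative run. This does not show that the strains aged alike, and no change above can be called particular to wild type.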

How the data were processed

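Small RNA of whole worms was sequenced in 12 libraries, 3 in each of N2 and mir-71(n4115) at day 0 and day 5; groups and replicate numbers were read from the titles. STAR 2.4.0h and DESeq2 were used with genome build WBcel235, per the submitters' processing notes; in the sources used here it is not given how reads were counted and which features set the size factors. The deposited table holds normalised counts of 213 mature microRNAs, a signal on a linear scale that the authors had already scaled, and a deposited log2 version served as an alternative only. All values of a library lay within 0.001 of whole multiples of one step, from which read numbers were inferred by the values alone; a formal check of them was not possible, and no test of counts was run.

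The values were tested as log2(value + 1) with limma 3.58.1 in R 4.3.3 (4 group means, 12 libraries, 8 residual degrees of freedom, intensity trend, two-sided), with Benjamini-Hochberg adjustment over 213 microRNAs, 61 arm ratios or 211 interactions and a threshold of 0.05. No filter was applied. Shares were tested by exact permutation in Python 3.11.15 with scipy 1.17.1. The procedure was tested on simulated data. Log2 changes carry limma standard errors. Precursor positions come from the Ensembl annotation of WBcel235, with genes of one strand at most 10000 bases apart taken as a group.

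MicroRNAs that could be named were those called and their other arms, the 10 most abundant, list members, the highest and lowest change of each abundance class and called arm ratios. Full values were given for the 8 largest rises and 8 largest falls among called microRNAs that averaged at least 20 and did not overlap, for called microRNAs with a mean of at least 1000 and for the 5 most abundant. The members and lists were chosen with earlier results of these data known. Alternatives covered pseudocount, filter, scaling, variance trend, replicate block, N2 libraries alone, the deposited log2 values, the total used for shares and each library left out in turn.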

Additional observations from a re-analysis of the deposited data

How the results depend on the processing

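The number of called rises was 16 under the authors' scaling, 26 with a replicate block, 27 with equal library totals, 39 with TMM scaling and 40 with equal medians, and 4 to 23 with 1 library left out. It was 14 without the variance trend, 14 with the deposited log2 values and 12 over microRNAs with a mean of at least 20. Called falls numbered 34, and 60 with the block, 57 with the N2 libraries fitted alone, 67 with equal totals, and 6 to 50 with 1 library left out. They numbered 28 without the variance trend, 24 with the deposited log2 values and 29 over microRNAs with a mean of at least 20. With the deposited log2 values the median change was −0.26 in place of −0.48. For arm ratios the 4 that turned towards 5p became 6 with the block and 6 with N2 alone (2 to 8 with 1 library left out), and the 4 that turned towards 3p became 7 with the block, 6 with N2 alone and 6 over precursors with a mean of at least 20 (4 to 10 with 1 library left out). Same-numbered N2 libraries correlated in their deviations from the group means by −0.0195, 0.128 and 0.0540 (Pearson, across microRNAs), and not every library correlated best with its own number. The main fit therefore did not pair the samples, but that check covered N2 only. Replicate 1 had the largest normalised total in every group, at 2342680 and 2126027 in young and aged N2 and 3024618 and 5021422 in the mutants. At day 5, 1 read was worth 1.23, 0.563 and 0.865 units in replicates 1, 2 and 3 of N2 and 1.23, 0.519 and 0.895 in the mutants. Whether libraries of one number shared a batch was not tested. The difference between the age effects was called in 0 microRNAs by limma under every alternative.

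Differences in share, in percentage points at day 5 minus day 0, moved as follows. Without the most abundant microRNA in set and total, the 10 most abundant went from 1.61 to −2.07, the mir-35 family from 7.96 to 10.04, the mir-58 family from 5.76 to −0.0958 and the mir-72 family from 0.944 to 1.39. Without the 10 most abundant, the abundance classes, from the scarcest up, went from −0.0492 to −0.107, −0.221 to −0.444, −2.13 to −4.64 and 2.3996 to 5.19. The let-7 family then had −1.62 in place of 0.795, lin-4 −1.49, mir-35 11.7, mir-72 2.61, mir-58 0.725, mir-51 −3.08, mir-2 −0.0639 and mir-64 −3.30, and for the 10 most abundant no value was possible. The cause was not tested beyond this construction.

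Of 810 alternative values for 38 single results, 723 kept direction and side of the threshold, 75 fell short of it, 4 passed it and 8 reversed. The reversals were those of miR-71-5p (0.13 with TMM, 0.13 with equal medians), miR-80-3p (0.30 and 0.31) and miR-82-3p (0.42 and 0.42, and −0.44 to 0.21 with 1 library left out, including 0.12 without replicate 2 of day 5). Of the 75, 18 arose without replicate 2 of day 0 and 13 without replicate 2 of day 5. Depth limits the scarcest microRNAs, where 1 read was worth 0.563 to 1.60 normalised units in N2.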
